A study of Mus musculus with 23 samples.

Results

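The genes described are 7 surface markers of metastatic or stem-like colorectal tumour cells, namely Emp1, L1cam, Cd44, Epcam, Cd24a, Alcam and Prom1. They were chosen by name, and each had 1 row among the 54354 genes of the table. The samples were 11 GFP-positive and 12 GFP-negative libraries from sorted cells of mouse colon tumours with the genotype Basp1-GFP. The tumours grew from AKP-tdT organoids, cultured tumour epithelium marked with tdTomato, injected into the colon, and all of them carried a Basp1-eGFP-DTR reporter, so GFP stands for activity of that reporter. Diet, age, sex, host strain and the number of organoid lines are not given in the labels, although the series title carries the letters HFD. The comparison asks how these markers differ between Basp1-reporter-positive and reporter-negative tumour cells.

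Metastasis of colorectal cancer depends on cells that detach from the epithelium, survive in contact with new matrix and regrow a gland. Surface proteins that hold epithelial cells together or bind matrix have been used to isolate the cells that do so. EMP1 marks residual tumour cells that seed relapse in mice, and L1CAM marks regenerative cells that start metastases. CD44, CD24, EpCAM, ALCAM and prominin-1 (CD133) have long been sorted as markers of tumour-initiating cells.

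Depth was low and uneven. Totals ran from 37125 to 4238877 counts (median 1418140) in GFP-positive libraries and from 25458 to 2304316 (median 144334.5) in GFP-negative libraries. GFP-positive 4 and GFP-negative 4, 5 and 12 held fewer than 100000 counts. Library numbers fall into 2 runs, called library set 1 (5 GFP-positive and 6 GFP-negative libraries) and library set 2 (6 GFP-positive and 6 GFP-negative libraries). All 9 epithelial markers were in the table, with summed levels of 3422 to 9494 CPM (counts scaled to a library total of 1000000) in GFP-positive and 2840 to 7260 CPM in GFP-negative libraries, so epithelial RNA was present in every library. Basp1, the gene of the reporter, had 13.3 to 108 CPM in GFP-positive and 0 to 83.8 CPM in GFP-negative libraries, a log2 difference of 0.63 (edgeR adjusted p = 0.997, SE 0.38). The sum of 8 fibroblast genes was 0 to 2082 CPM (median 199) in GFP-positive and 124 to 8628 CPM (median 1755) in GFP-negative libraries. The sum of 10 macrophage genes was 129 to 31106 CPM (median 350) in GFP-positive and 396 to 6617 CPM (median 2561) in GFP-negative libraries, the highest value being that of GFP-positive 3. Cd3d, Cd3e, Cd3g, Cd79a and Ms4a1, which define T and B cells, had 0 counts in all libraries, as had Nkg7. Other genes of the B and plasma cell list were detected. Igkc had 716 counts in GFP-positive and 76 in GFP-negative libraries, Jchain 57 and 10, and Cd79b 18 and 5. The sum of that list was highest in GFP-positive 2, at 239 CPM. Of the 6 genes of the T and NK cell list, Trbc1 alone was frequent, with 6206 counts in GFP-positive and 1708 counts in GFP-negative libraries, against 12 and 17 for Trbc2. In bulk samples, fewer cells of a type and less RNA per cell cannot be told apart.

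No marker passed the threshold in the comparison of populations. Of the 7 genes, 6 passed the filter on low counts and L1cam did not. None of these 6 was called, and 1 of all 6621 tested genes was (0.0151%; edgeR quasi-likelihood fit, p adjusted after Benjamini-Hochberg under 0.05), with 328 genes (4.95%) at an unadjusted p under 0.05, Epcam and Alcam among them. All 6 had a positive log2 fold change, as had 58.5% of all tested genes, although Emp1 and Cd24a turned negative when counts were scaled to epithelial markers. The median log2 fold change of the 6 was 0.38, beside 0.07 over all tested genes, and that scaling moved the median of all tested genes to -0.07. Only for Epcam and Alcam did the 95% interval of the fold change lie above 0, before adjustment over all genes.

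**Figure D1:**
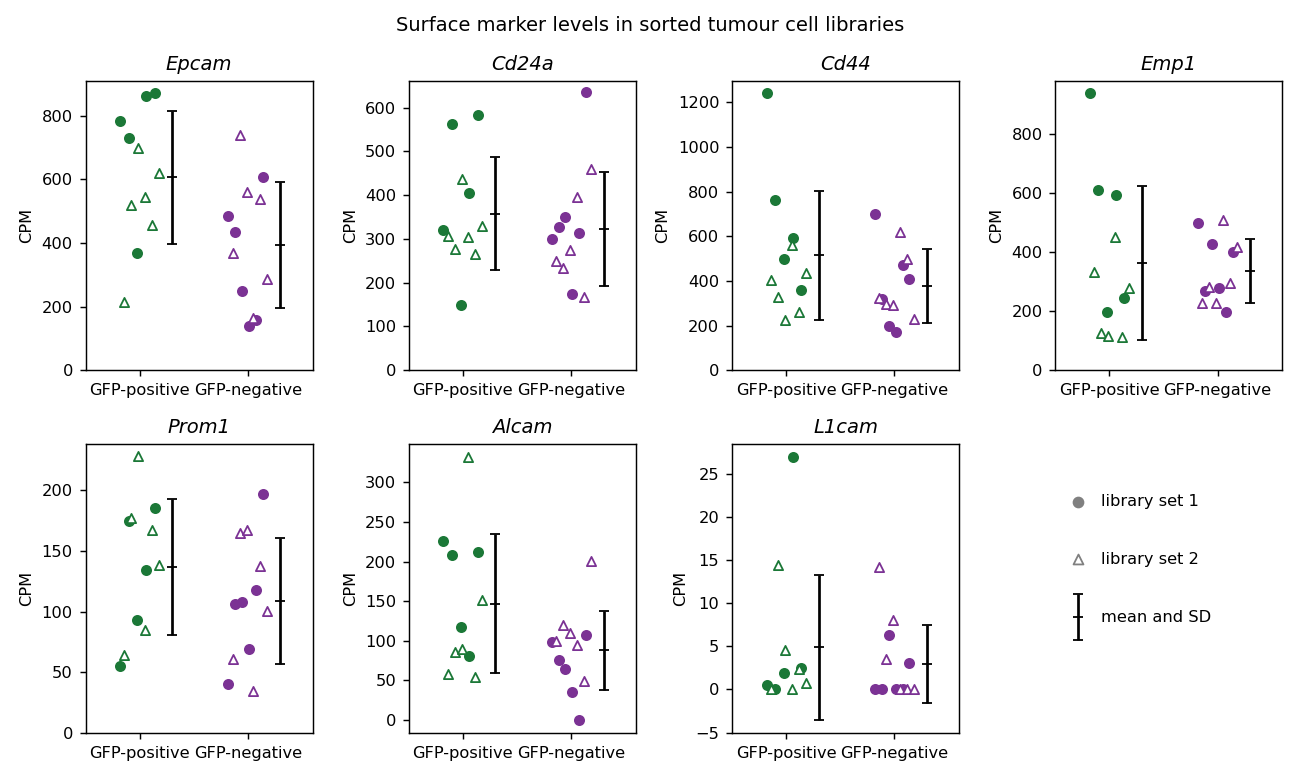
Level of each marker in CPM (linear axis) in the 11 GFP-positive and 12 GFP-negative libraries; each point is 1 library, filled circles are library set 1, open triangles library set 2, and the black bar gives the mean and SD. The populations overlap for all 7 genes, and the GFP-positive libraries with the highest Cd44, Emp1 and Epcam belong to library set 1.

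Per kilobase of exon, which allows levels to be compared between genes, Epcam led with a median of 236 CPM per kb over the 23 libraries (SD 103). Cd24a followed with 122 (SD 49.5), then Cd44 with 59.4 (SD 35.0) and Emp1 with 47.5 (SD 32.5). Prom1 had a median of 16.4 CPM per kb (SD 7.58), Alcam 13.9 (SD 10.6) and L1cam 0.096 (SD 0.895). The general epithelial adhesion gene Epcam thus stood on top, and the neural adhesion gene L1cam lay close to the limit of detection. The neighbours Cd44 and Emp1, Emp1 and Prom1, and Prom1 and Alcam differed in median by less than the SD of the upper gene of each pair.

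Epcam (ENSMUSG00000045394, chromosome 17, 87635979 to 87651129 on mm10, plus strand) encodes the epithelial cell adhesion molecule, a homophilic adhesion protein of nearly all gut epithelial cells. It ran from 215 to 872 CPM (median 621) in GFP-positive libraries and from 139 to 739 CPM (median 400) in GFP-negative libraries. GFP-positive 1, 4 and 5, all of library set 1, lay above the GFP-negative range at 782.5, 862 and 872 CPM, and the other 8 GFP-positive libraries lay inside it. The difference was 0.55 on the log2 scale (SE 0.24, 95% interval 0.05 to 1.04), with an unadjusted edgeR p of 0.0285 and an adjusted p of 0.992. Within library set 1 the mean was 723 ± 206 CPM in GFP-positive (SD, n = 5) and 345 ± 192 CPM in GFP-negative libraries (SD, n = 6), or 0.94 on the log2 scale (edgeR adjusted p = 0.803, SE 0.30). Within library set 2 it was 509 ± 167 CPM in GFP-positive (SD, n = 6) and 443 ± 209 CPM in GFP-negative libraries (SD, n = 6), or 0.19 on the log2 scale (edgeR adjusted p = 0.943, SE 0.31). The 3 lowest GFP-negative values, 139, 157 and 163 CPM in GFP-negative 4, 5 and 10, rest on 8, 4 and 19 counts. Without the libraries under 100000 counts, the log2 fold change was 0.34.

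Cd24a (ENSMUSG00000047139, chromosome 10, 43578284 to 43584265, plus strand) encodes the lipid-anchored, heavily glycosylated CD24. It ran from 149 to 582 CPM (median 319) in GFP-positive and from 167 to 636 CPM (median 307) in GFP-negative libraries. The lowest library, GFP-positive 3, and the highest, GFP-negative 6, carry the same identifier (the start of the library name), 7789-7795, and GFP-positive 3 is also the library with the highest macrophage sum. The difference was 0.14 on the log2 scale (SE 0.20, interval -0.28 to 0.56, edgeR adjusted p = 0.997). It was 0.13 (SE 0.31) in library set 1 and 0.17 (SE 0.24) in library set 2. Of the 6 markers, Cd24a varied least over the libraries, with a coefficient of variation of 37.6%, against 65.0% for Alcam.

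Cd44 (ENSMUSG00000005087, chromosome 2, 102811141 to 102901665, minus strand) encodes the main receptor for the matrix sugar hyaluronan and is a target of WNT signalling in the gut. Its transcripts are spliced in many ways, 8 of them annotated as protein-coding, and counts per gene do not tell the standard from the variant forms. It ran from 223 to 1243 CPM (median 434) in GFP-positive and from 173 to 701 CPM (median 321) in GFP-negative libraries. GFP-positive 1 stood highest, followed by GFP-positive 2 at 762 CPM and GFP-negative 1 at 701 CPM, and the other 20 libraries lay between 173 and 620 CPM. The difference was 0.44 on the log2 scale (SE 0.24, interval -0.05 to 0.93), with an unadjusted edgeR p of 0.0721 and an adjusted p of 0.996. Without GFP-positive 1 it was 0.23. In library set 1 the mean was 691 ± 342 CPM in GFP-positive (SD, n = 5) and 379 ± 196 CPM in GFP-negative libraries (SD, n = 6), or 0.82 on the log2 scale (edgeR adjusted p = 0.894, SE 0.34). In library set 2 the means were nearly equal, 368 ± 124 CPM in GFP-positive (SD, n = 6) and 377 ± 150 CPM in GFP-negative libraries (SD, n = 6), or 0.01 on the log2 scale (edgeR adjusted p = 0.998, SE 0.25).

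Emp1 (ENSMUSG00000030208, chromosome 6, 135362545 to 135383173, plus strand) encodes epithelial membrane protein 1, a small protein that crosses the membrane several times. It ran from 112 to 937 CPM (median 277) in GFP-positive and from 196 to 508 CPM (median 288) in GFP-negative libraries. The GFP-positive libraries spread to both sides of the GFP-negative range. GFP-positive 1, 2 and 4 held 937, 609 and 593 CPM, above every GFP-negative library, whereas GFP-positive 7, 8 and 10 held 124, 115 and 112 CPM, below every GFP-negative library. GFP-positive 3, at 195.5 CPM, was level with the lower end of the GFP-negative range. That end, 196 CPM in GFP-negative 5, rests on 5 counts in a library where 1 count stands for 39.28 CPM. The value of GFP-positive 4 rests on 22 counts. The SD was 261 CPM in GFP-positive (n = 11) and 109 CPM in GFP-negative libraries (n = 12), a difference in spread that was not tested. The difference was 0.05 on the log2 scale (SE 0.29, interval -0.56 to 0.66, edgeR adjusted p = 0.997). The library sets pointed in opposite directions. The mean was 516 ± 303 CPM in GFP-positive (SD, n = 5) and 344 ± 115 CPM in GFP-negative libraries of set 1 (SD, n = 6), or 0.45 on the log2 scale (edgeR adjusted p = 0.933, SE 0.34). It was 235 ± 141 CPM in GFP-positive (SD, n = 6) and 326 ± 113 CPM in GFP-negative libraries of set 2 (SD, n = 6), or -0.43 on the log2 scale (edgeR adjusted p = 0.896, SE 0.32).

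Alcam (ENSMUSG00000022636, chromosome 16, 52248996 to 52454074, minus strand) encodes CD166, an adhesion protein of the immunoglobulin type found on intestinal stem and progenitor cells. It ran from 53.6 to 332 CPM (median 118) in GFP-positive and from 0 to 201 CPM (median 96.8) in GFP-negative libraries. GFP-positive 9 stood highest, and GFP-positive 1, 2 and 5 lay between 208 and 226 CPM, above every GFP-negative library. The 0 belongs to GFP-negative 5, a library so shallow that 3 counts would stand for 118 CPM. The difference was 0.66 on the log2 scale (SE 0.29, interval 0.05 to 1.27), with an unadjusted edgeR p of 0.0292 and an adjusted p of 0.992. In library set 1 the mean was 169 ± 65.1 CPM in GFP-positive (SD, n = 5) and 63.3 ± 40.4 CPM in GFP-negative libraries (SD, n = 6), or 1.19 on the log2 scale (edgeR adjusted p = 0.803, SE 0.38). In library set 2 it was 129 ± 106 CPM in GFP-positive (SD, n = 6) and 112 ± 49.9 CPM in GFP-negative libraries (SD, n = 6), or 0.21 on the log2 scale (edgeR adjusted p = 0.945, SE 0.39).

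L1cam (ENSMUSG00000031391, chromosome X, 73853778 to 73896105, minus strand) encodes a neural adhesion protein that tumour cells switch on at invasive fronts and in metastases. It was barely detected, with 41 counts in GFP-positive and 30 counts in GFP-negative libraries in all. Of the 41 counts, 18 came from GFP-positive 8 and 9 from GFP-positive 7, and of the 30 counts, 10 came from GFP-negative 7 and 9 from GFP-negative 9. It had 0 counts in 3 GFP-positive libraries, where 3 counts would stand for 1.07 to 9.22 CPM, and in 7 GFP-negative libraries, where they would stand for 7.06 to 118 CPM. The highest value, 26.9 CPM in GFP-positive 4, is a single count. L1cam overlaps Arhgap4 on the same strand, which had 43 counts in all, so its few reads are an uncertain estimate. The fit without a filter gave a log2 fold change of -0.39 (SE 0.77, interval -1.99 to 1.22, edgeR adjusted p = 0.878), so a difference of either sign was not detectable at this depth.

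Prom1 (ENSMUSG00000029086, chromosome 5, 43993620 to 44102032, minus strand) encodes prominin-1, a protein of membrane protrusions. It ran from 55.4 to 229 CPM (median 138) in GFP-positive and from 34.4 to 197 CPM (median 107) in GFP-negative libraries. The lowest library of each population was one with high Emp1 and Cd44, GFP-positive 1 and GFP-negative 10. The difference was 0.32 on the log2 scale (SE 0.28, interval -0.26 to 0.89, edgeR adjusted p = 0.997), with 0.21 (SE 0.40) in library set 1 and 0.36 (SE 0.36) in library set 2. The Prom1 region also holds Gm42716 on the same strand and the antisense gene Gm16401, with 56 and 24 counts in all against 3560 for Prom1.

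**Figure D2:**
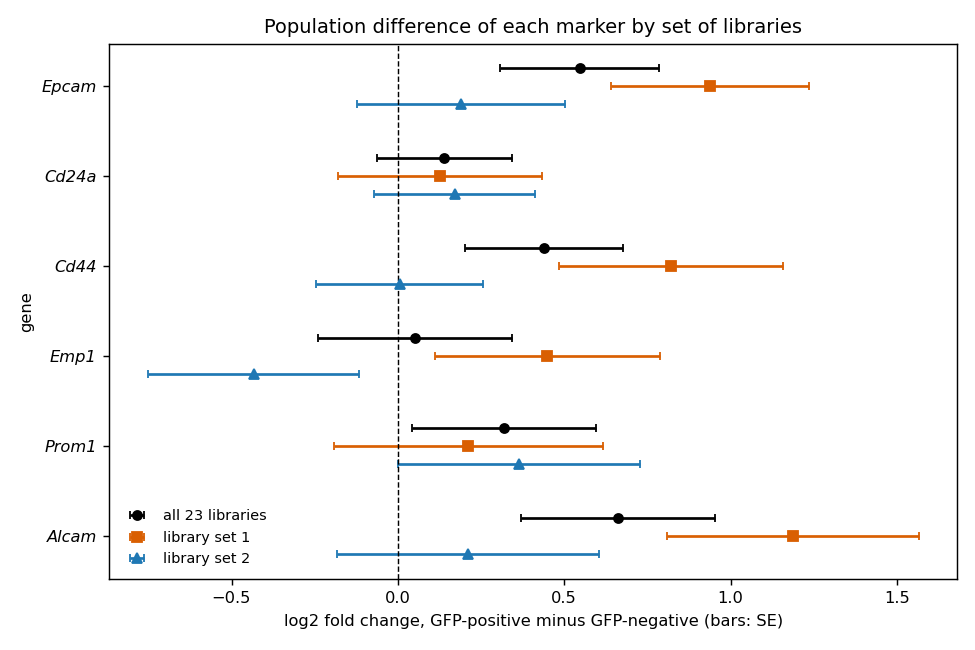
Log2 fold change of the 6 tested markers, GFP-positive minus GFP-negative, with its standard error as a bar, fitted over all 23 libraries (black), library set 1 (orange) and library set 2 (blue); the dashed line marks no difference. Epcam, Cd44, Alcam and Emp1 lie further right in library set 1 than in library set 2, and Emp1 crosses 0.

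The population differences of Epcam, Cd44, Alcam and Emp1 were all larger in library set 1 than in library set 2, but the difference between the sets passed no test. In library set 1, 0 of 5256 tested genes were called by edgeR (0%), with 284 at an unadjusted p under 0.05, and in library set 2, 89 of 6952 (1.28%), of which 3 were higher (0.0432%) and 86 lower (1.24%) in GFP-positive cells. No marker was among the 89. The interaction of population with library set was -1.01 for Alcam (SE 0.57), -0.92 for Emp1 (SE 0.51), -0.85 for Cd44 (SE 0.43) and -0.75 for Epcam (SE 0.47) on the log2 scale. Their unadjusted edgeR p-values were 0.0832, 0.0823, 0.0545 and 0.122, with adjusted p-values of 0.783, 0.783, 0.762 and 0.800, and 0 of 6621 genes (0%) had an interaction past the threshold. The library sets also differed in stromal RNA. The fibroblast sum had medians of 149 CPM in GFP-positive and 172 CPM in GFP-negative libraries of set 1, against 395 CPM in GFP-positive and 3142 CPM in GFP-negative libraries of set 2. The macrophage sum had medians of 362 CPM in GFP-positive and 1007 CPM in GFP-negative libraries of set 1, against 217 CPM in GFP-positive and 5002 CPM in GFP-negative libraries of set 2. Stroma-rich GFP-negative libraries of set 2 thus stood beside GFP-positive libraries with little stromal RNA. CD44 is also made by leukocytes and fibroblasts, ALCAM by endothelial and stromal cells and EMP1 by fibroblasts. The part of these cells in the marker levels was not tested.

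Across libraries, some markers were high and low together. Over the 19 libraries with at least 100000 counts, Emp1 and Cd44 went together (log2 CPM, Pearson r = 0.70, Spearman rho = 0.65). Prom1 ran the other way, with r = -0.62 against Emp1 (rho = -0.60) and r = -0.54 against Cd44 (rho = -0.54). Prom1 and Epcam went together (r = 0.61, rho = 0.60), as to a lesser degree did Epcam and Alcam (r = 0.51, rho = 0.60) and Cd44 and Alcam (r = 0.50, rho = 0.43), pairs that differed between the library sets. These are descriptions without a test, since libraries share identifiers and a scaling to the library total, and the pattern was noticed in these values.

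**Figure D3:**
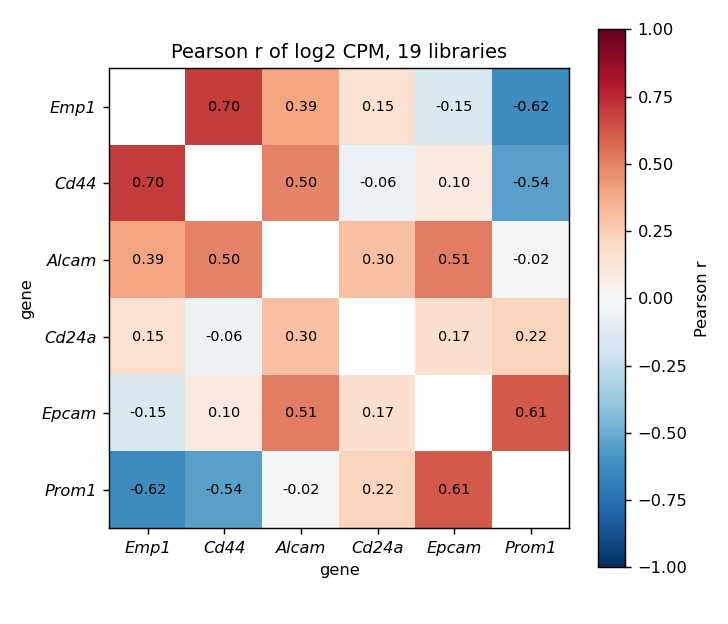
Pearson correlation of log2 CPM between 6 markers over the 19 libraries with at least 100000 counts, from blue (-1) to red (1). Emp1 and Cd44 are positively related, and each is negatively related to Prom1.

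The relation of Emp1 to Cd44 was r = 0.92 in GFP-positive (n = 10) and 0.49 in GFP-negative libraries (n = 9), and 0.63 in library set 1 (n = 8) and 0.84 in library set 2 (n = 11). That of Emp1 to Prom1 was -0.73 in GFP-positive and -0.56 in GFP-negative libraries, and -0.45 in set 1 and -0.77 in set 2. Without the 2 libraries farthest from the median of Emp1, r was 0.56 for Cd44 and -0.54 for Prom1. The relation of Epcam to Prom1 was 0.38 without the 2 libraries farthest from the median of Epcam and was 0.20 in set 1 against 0.88 in set 2. That of Epcam to Alcam was 0.89 in set 1 and 0.28 in set 2. That of Cd44 to Alcam was 0.71 in set 1 and 0.22 in set 2, 0.60 in GFP-positive and 0.17 in GFP-negative libraries, and 0.32 without the 2 libraries farthest from the median of Cd44. Cd44 and Epcam had opposite signs in the sets, 0.64 in set 1 and -0.62 in set 2. Emp1 and Cd44 had r = 0.19 and 0.21 against the macrophage sum, and r = 0.21 and 0.22 against the fibroblast sum. Prom1 had r = -0.50 against the macrophage, -0.45 against the fibroblast and 0.53 against the epithelial sum. Cd24a had r = -0.55 against the macrophage sum, and Epcam r = 0.65 against the epithelial sum. GFP-positive 1 and GFP-negative 10, with the highest Emp1 of their populations, had fibroblast sums of 2082 and 6970 CPM. GFP-negative 9, with the highest fibroblast sum (8628 CPM), had 226 CPM of Emp1. The part of stromal RNA in these relations was not tested. Epcam and Alcam moved with the total count (r = 0.67 and 0.56), whose part in their levels was not tested.

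**Figure D4:**
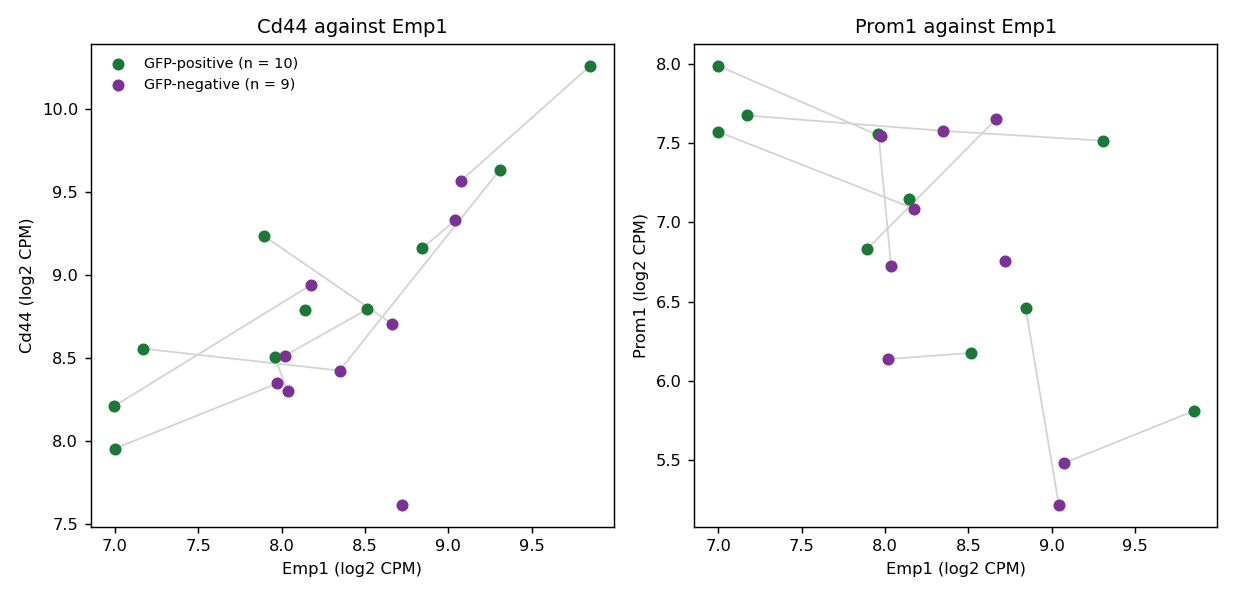
Cd44 (left) and Prom1 (right) against Emp1, all as log2 CPM, in the 10 GFP-positive (green) and 9 GFP-negative (purple) libraries with at least 100000 counts; grey lines join GFP-positive and GFP-negative libraries with the same identifier. Cd44 climbs with Emp1, whereas Prom1 declines.

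The ratio of Emp1 to Prom1 counts within a library does not depend on how libraries are scaled. It ran from 0.502 in GFP-positive 8 to 16.9 in GFP-positive 1 (median 2.10, n = 11) and from 1.35 in GFP-negative 9 to 14.8 in GFP-negative 10 (median 3.12, n = 12). The identifier is shared by GFP-positive and GFP-negative libraries in 10 cases, and the labels do not say whether it is an animal. In 9 cases the names match. In the other, the GFP-positive library is named 8045-8050 and was set against the GFP-negative libraries named 8050 and 8045, GFP-negative 4 and 5, jointly. Identifier 3034 had a high ratio in both populations, 16.9 in GFP-positive (3971 Emp1 and 235 Prom1 counts) and 12.5 in GFP-negative cells (212 and 17 counts). Identifier 40-1 had a low ratio in both, 0.502 in GFP-positive (448 and 893 counts) and 1.35 in GFP-negative cells (254 and 188 counts). Identifier 7907 had 5.30 in GFP-positive (387 and 73 counts) and 14.75 in GFP-negative cells (59 and 4 counts). Identifier 61-1 has a pair of GFP-positive libraries that differed, with 3.49 in GFP-positive 2 of library set 1 (1709 and 490 counts) and 0.703 in GFP-positive 7 of library set 2 (78 and 111 counts), beside 1.71 in GFP-negative 8 (243 and 142 counts). Their counts were summed to a ratio of 2.97 in GFP-positive cells. Over the 10 identifiers, the log2 ratio of GFP-positive cells was related to that of GFP-negative cells with r = 0.77 and rho = 0.71, with r = 0.53 without the 2 identifiers farthest from the median, and with r = 0.79 without the joined 8045-8050. This ratio was chosen after Emp1 and Prom1 were seen to be opposed in these values. For Cd44 over Prom1, r was 0.70, and 0.39 without 2 identifiers. For single markers as log2(CPM + 1), r was 0.72 for Prom1, 0.49 for Cd44, 0.40 for Emp1 and 0.37 for Alcam. It was -0.06 for L1cam, -0.16 for Epcam and -0.45 for Cd24a. The ratio of Emp1 to Prom1 was higher in GFP-positive cells of 5 identifiers and lower in the other 5. For 61-1 the direction rests on the summed counts, since GFP-positive 7, of the same library set as GFP-negative 8, lay below it.

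Single markers were compared between identifiers in 1 fit with population as a covariate, a test added after the data had been seen. None of the 6 tested markers passed, and 43 of 6621 genes (0.649%) did. The smallest adjusted p-values among the markers were those of Prom1 (edgeR F = 3.42, unadjusted p = 0.00256, adjusted p = 0.150) and Cd44 (F = 3.41, unadjusted p = 0.00261, adjusted p = 0.152). Those of Emp1, Alcam, Epcam and Cd24a were 0.560, 0.582, 0.832 and 1.00 by the same test. Without identifier 7789-7795, whose GFP-positive library is the macrophage-rich GFP-positive 3, Cd44 and Prom1 passed (edgeR adjusted p = 0.0235 and 0.0322), among 195 of 6272 genes (3.11%). Without identifier 3034 their adjusted p-values were 0.949 and 0.593, and without the libraries under 100000 counts they were 0.352 and 0.214, with 7 of 7490 genes called (0.0935%). In library set 2 alone, 157 of 6952 genes (2.26%) were called.

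Within the 10 identifiers, Prom1 was higher in the GFP-positive cells of 9, by 0.33 ± 0.60 on the log2(CPM + 1) scale (SD, n = 10), the exception being 7789-7795 with -1.07. Of the 9, 61-1 and 5780 differed by only 0.094 and 0.083. The largest difference, 1.28 in 7907, rests on 4 GFP-negative counts, and that of 8045-8050 on 5 counts against 4 and 3. How many of all tested genes were higher in 9 identifiers was not counted. In the main fit, 58.5% of all tested genes had a positive fold change. Alcam, Cd44 and Cd24a were each higher in 7 of 10, by 0.57 ± 1.01, 0.28 ± 0.63 and 0.12 ± 0.91 (SD, n = 10). Epcam was higher in 6 of 10, by 0.54 ± 1.08, and its largest difference, 2.54, was that of 8045-8050, where 32 counts in GFP-positive cells stood against 8 and 4 counts in the GFP-negative libraries named 8050 and 8045. Without this joined case, the mean difference was 0.32 ± 0.87 for Epcam and 0.40 ± 0.89 for Alcam (SD, n = 9). Emp1 was higher in 4 of 10, with a mean of -0.11 ± 0.89 and a range from -1.39 in 7914 to 1.32 in 8045-8050. L1cam was higher in 6 and lower in 3, by 0.55 ± 2.21 on average (SD, n = 10), on few or no counts in each. These differences were not tested.

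The sequences before the start sites of Emp1, Cd44, Prom1 and Epcam are shown because Emp1 varied with Cd44 and Prom1 with Epcam, and Prom1 against Emp1 and Cd44. Each is the 250 bases before the RefSeq start on GRCm38.p6 (the start farthest upstream where there are several), 5′ to 3′ on the strand of the gene. Capitals mark matches on either strand to 5 motifs, namely TGANTCA (AP-1) and 4 others. The TEAD motif was searched as GGAATG. The TCF/LEF motif was searched as CTTTGA. The motif of SP and KLF factors was searched as GGGCGG. The TATA box was searched as TATAAA. Promoters were found for 6 of the 7 genes. The windows are chr6:135362681-135362930 (plus strand) for Emp1, chr2:102901666-102901915 (minus strand) for Cd44, chr5:44101737-44101986 (minus strand) for Prom1 and chr17:87635729-87635978 (plus strand) for Epcam.
Emp1: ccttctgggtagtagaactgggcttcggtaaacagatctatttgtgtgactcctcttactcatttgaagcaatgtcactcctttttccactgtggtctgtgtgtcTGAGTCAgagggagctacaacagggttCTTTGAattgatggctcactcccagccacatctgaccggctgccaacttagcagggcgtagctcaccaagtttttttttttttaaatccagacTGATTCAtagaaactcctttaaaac
Cd44: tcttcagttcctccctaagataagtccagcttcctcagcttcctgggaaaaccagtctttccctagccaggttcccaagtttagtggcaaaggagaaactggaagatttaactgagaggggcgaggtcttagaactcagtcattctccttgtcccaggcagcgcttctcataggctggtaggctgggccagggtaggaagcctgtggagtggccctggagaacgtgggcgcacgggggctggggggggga
Prom1: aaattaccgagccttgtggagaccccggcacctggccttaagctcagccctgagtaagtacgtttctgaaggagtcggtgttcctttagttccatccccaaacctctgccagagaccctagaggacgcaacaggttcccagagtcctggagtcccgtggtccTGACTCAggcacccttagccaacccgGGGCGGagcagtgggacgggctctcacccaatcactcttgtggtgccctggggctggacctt
Epcam: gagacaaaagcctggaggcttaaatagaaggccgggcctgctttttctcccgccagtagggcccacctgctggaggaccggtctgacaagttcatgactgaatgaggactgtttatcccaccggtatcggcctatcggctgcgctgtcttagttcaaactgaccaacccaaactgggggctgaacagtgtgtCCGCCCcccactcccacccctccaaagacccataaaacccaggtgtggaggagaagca

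The Emp1 window held 2 matches to TGANTCA and 1 to CTTTGA, found in 6.75% and 13.8% of the 32851 promoter windows of this length. The Prom1 window held 1 match to TGANTCA and 1 to GGGCGG, and the Epcam window 1 match to GGGCGG, which 32.7% of all windows hold. The Cd44 window held none of the 5 motifs, so in these windows Emp1 and Cd44 shared no motif searched. Emp1 and Prom1, which varied oppositely, shared TGANTCA. The matches depend on the start chosen: the window of the second Emp1 start held 0 matches to TGANTCA, and that of the second Prom1 start held 1. GGAATG and TATAAA, found in 12.6% and 12.4% of all windows, were in none of these 4 windows.

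Each marker was also set beside all other tested genes over the same 19 libraries, and the 2 with the highest Pearson correlation of log2 CPM are given as a description. For Emp1 they were Ahnak (r = 0.84), which encodes a giant scaffold protein under the membrane, and Cav2 (r = 0.82), a caveolin gene. For Cd44 they were Prss12 (r = 0.86), a secreted protease gene, and Iqgap1 (r = 0.83), which encodes a scaffold of the actin skeleton. For Epcam they were Aig1 (r = 0.90) and the transporter gene Slc22a18 (r = 0.86), and for Prom1 Sinhcaf (r = 0.86), of a histone deacetylase complex, and the mitochondrial carrier gene Slc25a35 (r = 0.86). Alcam was closest to Ythdc1 (r = 0.90), a reader of RNA methylation, and Galnt1 (r = 0.86), an enzyme of protein glycosylation. For Cd24a the values were lower, with Fam110c (r = 0.76) and Ergic2 (r = 0.75).

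Genes that work with these proteins did not pass the threshold either, over all libraries or within a library set. All 8 EpCAM partners and their protease controls had a positive log2 fold change over all libraries, with a median of 0.28. Of all tested genes 58.5% were positive, with a median of 0.07. Over all libraries, the list of 9 epithelial markers came close to the partners, with 7 positive and a median of 0.27. In library set 1, 6 of the 8 partners were positive (median 0.11), and in library set 2 all 8 (median 0.41). Of the 9 epithelial markers, 4 were positive in library set 1 (median -0.06) and 9 in library set 2 (median 0.40). The most expressed of them, Cd9, a tetraspanin that binds EpCAM, had 0.49 (SE 0.18, unadjusted edgeR p = 0.00917, adjusted p = 0.939). Of 16 genes for hyaluronan metabolism, CD44 ligands, linkers and splicing, 11 were tested and 8 were positive, with a median of 0.23, and the CD44 ligand gene Spp1 had 0.07 (SE 0.48). Of the 3 relatives of Emp1, 2 were positive, and Emp3 had 0.62 (SE 0.44). Of 14 invasion genes used beside Emp1, 13 were tested and 12 were positive, with a median of 0.38, and Hbegf, an EGF receptor ligand gene, had 0.57 (SE 0.23, unadjusted edgeR p = 0.0204, adjusted p = 0.951). In library set 1, 11 of the 13 invasion genes were positive (median 0.57), and in library set 2, 9 of the 13 (median 0.18).

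The lists nearer to shedding and to stem cells showed no common direction. Of 12 genes of the proteases that shed CD44, L1CAM, ALCAM and EpCAM and of their inhibitors, 10 were tested, 4 positive and 6 negative, with a median of -0.07, and Psenen, a subunit of gamma-secretase, had 0.11 (SE 0.19). The inhibitor genes Timp1 and Timp3 had the lowest values, -1.23 (SE 0.54) and -1.30 (SE 0.66). They had -0.11 and 0.30 in library set 1, and -1.81 and -2.51 in library set 2 (edgeR adjusted p = 0.064 and 0.166). Of 12 stem cell genes used beside CD44 and prominin-1, 6 were tested, 3 positive and 3 negative, with a median of -0.01, and Sox9, a transcription factor gene of crypt progenitors, had 0.50 (SE 0.31). Of 15 related adhesion genes and ligands, only Itgav and Itgb1 were tested, and the integrin gene Itgb1 had -0.07 (SE 0.21). For comparison of size, the fibroblast collagen gene Col3a1 had -2.04 (SE 0.76, edgeR adjusted p = 0.949) over all libraries and -2.86 in library set 2 (SE 0.79, edgeR adjusted p = 0.208). Other fibroblast genes passed the threshold in library set 2. There 3 of 6 tested fibroblast genes and 7 of 7 tested macrophage genes were called lower in GFP-positive cells, beside 1.24% of all tested genes. The macrophage gene Lyz2 had -0.06 (SE 0.95, edgeR adjusted p = 0.997) over all libraries and fell by 3.66 in GFP-positive cells of library set 2 (SE 0.62, edgeR adjusted p = 0.0156). The log2 fold changes of the 6 tested markers stayed between -0.43 and 1.19 in the library sets.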

How the data were processed

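The data are bulk messenger RNA counts of 23 mouse libraries. TRIzol extraction, poly(A) selection and a directional kit, which keeps strand, were used per the labels' protocols. These speak of organoid RNA, but the design text of cells from digested tumours. The table holds expected counts (estimated counts per gene) as deposited by the authors, already whole numbers. Salmon 1.3.0 and mm10 are named in the submitters' processing notes, with annotation and settings not given in the sources used here. Reads matching several transcripts are shared out by such estimates, so overlapping or near-identical genes are uncertain. Positions and exon lengths came from GENCODE release M21 (GRCm38, the same build as mm10), and promoters from RefSeq on GRCm38.p6.

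Groups came from the titles. The main test was edgeR 4.0.16 in R 4.3.3 (quasi-likelihood, robust, without covariates, after filterByExpr on the groups and TMM scaling, Benjamini-Hochberg adjustment over all genes tested, threshold 0.05), fitted on all libraries. A gene under the filter took its value from the same fit over the 23846 genes with at least 1 count. The standard error of a fold change was derived from the test, as the absolute log2 fold change divided by the square root of F. Intervals are 95% and come from this standard error with 21 residual degrees of freedom, so they are approximate. CPM are counts scaled to a library total of 1000000. The labels do not tie libraries to separate animals, and p-values therefore measure a spread between libraries that may be technical. On data simulated for the population comparison over 6621 genes, 33.0% of genes changed 2-fold and 93.0% of genes changed 4-fold were called. The simulated libraries were drawn independently, without effects of library set or stromal RNA and with identifier effects in other genes only. These shares may therefore not hold for the real libraries. Alternatives were DESeq2 1.42.0, other scalings, filters, subsets of libraries, a library set covariate and replicate blocks. The members, gene lists and tests were chosen with earlier results of these data known. Apart from the exceptions below, genes other than the members were named by rule: from each list the genes past the threshold, or else its most expressed gene, the leading fibroblast and macrophage gene, and for each member the 2 genes with the highest correlation of log2 CPM (prior count 2). Named outside this rule were Basp1, Itgav, Timp1, Timp3, genes that overlap a member, and genes of the T, NK, B and plasma cell lists.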

Additional observations from a re-analysis of the deposited data

How the results depend on the processing

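In the population comparison, no alternative brought any of the 7 markers past the threshold. Epcam, Cd44, Alcam and Prom1 kept a positive log2 fold change in all 12 alternatives and in all 23 fits that left out 1 library. Emp1 had 0.05 and turned to -0.085 with epithelial marker counts as library size, -0.022 without the libraries under 100000 counts, -0.43 in library set 2 and -0.0093 with library set as a covariate. Leaving out single libraries gave Emp1 values from -0.20 (without GFP-positive 1) to 0.13, Cd44 0.23 to 0.58, Epcam 0.47 to 0.67, Cd24a 0.055 to 0.28, Alcam 0.48 to 0.76 and Prom1 0.20 to 0.44. Cd24a turned to -0.036 with epithelial marker counts as library size. L1cam turned to 0.049 in library set 1, and leaving out single libraries gave -1.04 to 0.16. The count of genes called in the population comparison, 1 over all libraries, was 0 with at least 10 counts in at least 11 libraries, 0 in library set 1, 89 in library set 2 and 24 by DESeq2, and 0 to 16 when single libraries were left out (16 without GFP-positive 3). The cause of these changes was not tested.

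Title numbers shared an identifier in 2 of 11 pairs, and their deviations from the group means had a median correlation of -0.02. Pairs that share an identifier had a median of 0.08, with 5 of 12 over 0.1, so over all genes neither met the limit of 0.1 in every pair. The labels tie libraries by identifier without saying what it is, and whether it pairs them was not settled. With a replicate block by identifier, 3 genes were called, Emp1 had -0.11, L1cam 0.20 and Alcam 0.44 (against 0.66 without the block, unadjusted edgeR p = 0.121). Epcam had 0.47 with this block (against 0.55, unadjusted edgeR p = 0.0463, adjusted p = 0.999) and Cd44 0.30 (against 0.44). With a block by title number, 2 genes were called and Emp1 had -0.13. With a block by identifier and without the libraries under 100000 counts, chosen after seeing the data, Emp1 had -0.17, Epcam 0.21 (against 0.55, unadjusted edgeR p = 0.363) and Cd44 0.19 (against 0.44). Alcam had 0.50 in that fit (against 0.66, unadjusted edgeR p = 0.0825). The count of genes that differed between identifiers, 43 over all libraries, was 7 without the libraries under 100000 counts, 157 in library set 2, 17 without identifier 8045-8050, 195 without 7789-7795, 92 without 61-1 and 24 without 7914. Depth limits the markers of low level: 1 count stands for up to 39.28 CPM in the shallowest library.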
